A study of Mus musculus with 6 samples.

Results

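Homeobox patterning factors were followed in the mouse cell line mDE6 under knockdown of Arl4c, which encodes a GTPase related to the ARF proteins. One group, shArl4c, carried a short hairpin RNA against this gene, and the other, shControl, a control hairpin. The members were all protein-coding genes named Hoxa to Hoxd, Dlx1 to Dlx6, Msx, Pitx, Barx, Lhx1 to Lhx9, Prrx, Alx, Irx, Pax, Meis, Pbx, Isl or Shox2, and the family of Six2. The name table held 97 such genes, of which 61 had a row among the 22032 genes of the deposited table. Of these, 45 had a mean of at least 1 CPM (the reads of a gene scaled to the size of its library) over the 6 libraries and were tested. The other 16 fell below that level, and the remaining 36 are not analysed here. Each group had 3 libraries of total RNA, named by the numbers in the deposited table as shControl 1, 2 and 3 and shArl4c 2, 3 and 4, and the columns taken as shControl name a luciferase hairpin. The labels give neither the tissue of origin of the line, nor its age, nor the hairpin sequences, and tell apart 1 Arl4c hairpin group. Effects of less Arl4c therefore cannot be told apart from other effects of that hairpin or of the culture that carried it.

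Homeobox genes encode transcription factors that bind DNA through a homeodomain, and they mark where along the body and within an organ a cell lies. Hox genes lie in 4 clusters and pattern the trunk and limbs from head to tail, with MEIS and PBX proteins as their DNA-binding partners. In the embryonic jaw, where the mesenchyme of the first pharyngeal arch is known to lack most Hox expression, Dlx, Msx, Barx1, Lhx6, Lhx8, Pitx and Pax9 genes map the positions of the teeth. Prrx1, Prrx2, Alx, Shox2, Six2 and Irx genes mark mesenchyme of the head and limbs.

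In shArl4c libraries most of the members that moved were lower. Among the 45 tested genes, 23 fell and 3 rose, while 19 missed the threshold (limma on log2 of CPM + 1, adjusted p under 0.05 over all 14740 tested genes). The 26 called members are 57.8% of those tested, where 36.9% of all tested genes were called. Lower calls made up 51.1% of the members against 18.0% of all tested genes, and higher calls 6.67% against 18.9%. The median log2 fold change was -0.22 over the members and 0.01 over all tested genes. Among the largest falls were those of Dlx6, Dlx5, Six2 and Irx2, each at least 2-fold on the log2 scale, a size that 2.53% of all tested genes reached as lower calls. The rises were those of Dlx3, Meis2 and Six4. Some called members, Dlx3, Dlx5, Irx2 and Pax8 among them, had a mean under 1 CPM in 1 group. They were tested through their level in the other group. Libraries of the 2 groups did not overlap in 30 of the 45 members, against 46.8% of all tested genes. They were apart with shArl4c lower in 25 members, against 22.5% of all tested genes, and with shArl4c higher in 5, against 24.3%.

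**Figure D1:**
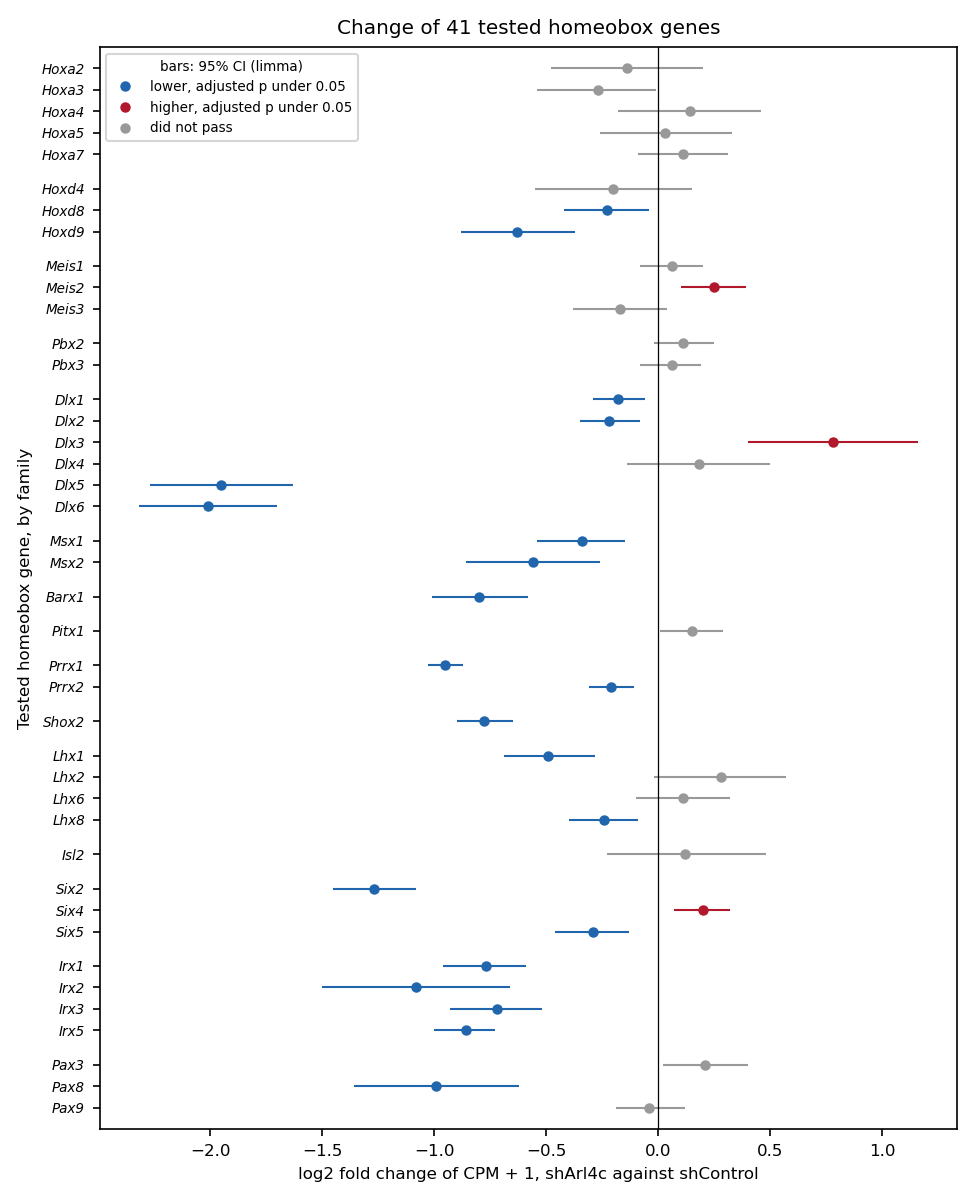
Log2 fold change of CPM + 1 (horizontal axis, shArl4c against shControl) of 41 of the 45 tested homeobox genes, grouped by family from top to bottom. Points are limma estimates with 95% confidence intervals, in blue for the 21 shown that fell, in red for the 3 that rose and in grey for the 17 shown that did not pass; all 4 Irx genes and both Msx genes lie to the left of 0, and Hoxa genes lie on both sides of it.

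The hairpin's target was lower in every shArl4c library. Arl4c stood at 20.7, 21.0 and 20.1 CPM in the shControl libraries and at 6.75, 7.42 and 6.89 CPM in the shArl4c libraries, 2.94-fold lower (limma log2 fold change -1.43, SE 0.09, adjusted p = 2.08e-10). Libraries held 12316770 to 14976113 reads, recovered from the CPM values, and 1 read was worth 0.0672 to 0.0827 CPM. Library shArl4c 3 stood apart from the other shArl4c libraries, as chi-square over degrees of freedom was 4.87 to 5.74 against them, 1.54 to 2.30 for the other pairs within a group and 28.1 to 32.7 across groups. It held the lowest value of its group in 15 of the 23 members that fell. Without it, 27 members were called, 22 lower and 5 higher, and 25 of the 26 calls remained. That fit called 45.1% of all tested genes. Of the marker lists, 10 of 11 mesenchymal genes were tested, of which 5 fell and 3 rose. Their list had a summed level of 30999 to 32427 CPM in shControl and 18627 to 19519 CPM in shArl4c. Most of that sum was Col1a1 (means of 17787 and 10139 CPM) and Col1a2 (9443 and 5240 CPM). Twist2, Pdgfra and Pdgfrb rose, and Vim and Twist1 did not pass. Of 13 epithelial genes only Trp63 was tested, with control and shArl4c means of 5.17 and 6.37 CPM that did not pass, and the 9 with a row summed to 6.35 to 7.61 CPM in shControl and 8.02 to 8.78 CPM in shArl4c. The untested epithelial genes went both ways: the E-cadherin gene Cdh1 had a mean of 0.321 CPM in shControl and 0 reads in shArl4c, whereas the keratin gene Krt14 had means of 0.708 and 1.24 CPM. Of 4 tested osteoblast markers 3 fell (75.0%, against 18.0% of all tested genes). Sp7 went from 23.4 to 1.37 CPM, Alpl from 45.1 to 20.5 CPM and Runx2 from 143 to 112 CPM. The summed level of that list was nevertheless 571 to 593 CPM in shControl and 869 to 923 CPM in shArl4c, since Spp1 alone rose from 372 to 766 CPM. In the lists for other cell types, 1 of 3 tested leukocyte genes was higher (33.3%, against 18.9% of all tested genes), namely Cd68 (log2 fold change 0.84). The 2 tested endothelial genes and the 1 tested neural crest or glial gene did not pass. No listed muscle gene was tested, but Myod1 held 1 read in each shControl library and 13 to 19 in the shArl4c libraries. The part of these shifts in the results on homeobox genes was not tested. In bulk RNA, fewer cells of a type and less RNA per cell cannot be told apart.

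Promoters of the members that fell are shown to set their sequence beside their values. The promoter table (RefSeq, GRCm38.p6) held 43 of the 61 members with 51 start sites, among them 19 of the 26 called members with 20 start sites, and the 250 bases upstream of each start were read. TAAT, the core that many homeodomains bind, was searched on both strands, so that ATTA counts as well, together with the longer TAATTA, which contains it, and with TATAAA. The 5 sequences below belong to Six2, Prrx1, Barx1 and Shox2, the members with a mean of at least 5 CPM and a promoter in the table that fell the most, and to Msx2, which with Prrx1 was the only called member whose window held TAATTA. Capitals mark every TAAT or ATTA.
Six2, chr17:85688255-85688504, minus strand: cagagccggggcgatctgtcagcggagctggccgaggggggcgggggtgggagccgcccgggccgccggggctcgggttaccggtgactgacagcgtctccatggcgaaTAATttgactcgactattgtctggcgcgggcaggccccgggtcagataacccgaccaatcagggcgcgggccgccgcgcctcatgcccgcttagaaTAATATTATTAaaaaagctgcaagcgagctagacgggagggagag
Prrx1, chr1:163313651-163313900, minus strand: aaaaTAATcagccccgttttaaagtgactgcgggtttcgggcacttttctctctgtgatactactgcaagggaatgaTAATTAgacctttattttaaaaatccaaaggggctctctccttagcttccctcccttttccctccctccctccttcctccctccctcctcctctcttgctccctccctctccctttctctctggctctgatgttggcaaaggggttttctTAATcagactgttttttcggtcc
Barx1, chr13:48662786-48663035, plus strand: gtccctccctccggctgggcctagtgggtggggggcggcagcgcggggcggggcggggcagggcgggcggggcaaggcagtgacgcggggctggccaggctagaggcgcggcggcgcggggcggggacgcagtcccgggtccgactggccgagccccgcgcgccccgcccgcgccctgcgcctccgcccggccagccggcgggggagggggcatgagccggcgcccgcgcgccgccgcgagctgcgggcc
Shox2, chr3:66981772-66982021, minus strand: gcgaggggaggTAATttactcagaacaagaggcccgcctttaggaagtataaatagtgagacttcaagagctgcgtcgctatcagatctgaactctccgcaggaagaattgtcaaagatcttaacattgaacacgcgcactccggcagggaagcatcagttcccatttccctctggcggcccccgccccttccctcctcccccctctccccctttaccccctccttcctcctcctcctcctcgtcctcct
Msx2, chr13:53472781-53473030, minus strand: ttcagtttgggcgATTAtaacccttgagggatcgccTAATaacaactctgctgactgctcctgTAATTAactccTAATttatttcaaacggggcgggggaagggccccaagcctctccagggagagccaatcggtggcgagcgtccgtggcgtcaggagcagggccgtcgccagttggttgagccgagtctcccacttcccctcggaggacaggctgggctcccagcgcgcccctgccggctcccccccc

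The windows of these 5 members differed in sequence. Prrx1 held 4 matches to TAAT or ATTA and 4 CG dinucleotides, Six2 held 4 matches and 26 CG, Msx2 held 5 and 16, and Shox2 held 1 and 11, while Barx1 held no match and 40 CG. Over the windows of called members, TAAT or ATTA was present in 11 of 20 (55.0%), and TAATTA and TATAAA in 2 of 20 each. The shares over all 32851 promoters of the table were 54.9%, 4.84% and 12.4%. The median number of CG was 14 in the windows of called members, 15 in those of all members with a promoter and 6 in all promoters. These matches describe letters in a window and are not shown to be binding sites.

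Dlx genes, which give the parts of the jaw their identity along its proximal to distal axis, split by chromosomal pair. Dlx6 and Dlx5 had the largest changes of the tested members, Dlx6 on the scale of log2 of CPM + 1 and Dlx5 as a ratio of means and with edgeR. In library order, its level was 9.67, 8.88 and 10.1 CPM in the controls, and its shArl4c values were 2.18, 1.35 and 1.38 CPM, so that every shArl4c library was far below every control. The means were 9.55 ± 0.618 and 1.63 ± 0.471 CPM (SD, n = 3 libraries per group, as for all means here), 5.84-fold lower (limma log2 fold change -2.01, SE 0.15, adjusted p = 2.05e-09). Its neighbour Dlx5, which acts with Dlx6 in the lower jaw and in osteoblasts, stood at 5.91, 5.65 and 6.21 CPM in shControl and at 0.871, 0.5996 and 0.918 CPM in shArl4c. No shArl4c library reached 1 CPM of Dlx5, and the fall was 7.43-fold (limma log2 fold change -1.95, SE 0.15, adjusted p = 4.49e-09). Since 1 CPM was added before taking logs, log2 values understate the change of genes this low.

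The pair Dlx1 and Dlx2, which acts in the upper jaw and in molar development, was more abundant and fell by less. Dlx1 stood at 48.6, 46.3 and 46.7 CPM in shControl and at 40.5, 43.5 and 40.9 CPM in shArl4c (limma log2 fold change -0.18, SE 0.06, adjusted p = 0.0183). Dlx2 went from 33.7 ± 1.58 to 28.8 ± 0.833 CPM, a log2 fold change of -0.22 (limma adjusted p = 0.011). Both pairs fell without overlap between the groups, but the 95% confidence interval of the log2 fold change was -2.32 to -1.70 for Dlx6 and -0.29 to -0.06 for Dlx1. In the pair Dlx3 and Dlx4, Dlx3, a regulator of skin, hair and tooth matrix cells, rose from a low level. Dlx3 stood at 1.18, 1.08 and 0.496 CPM in shControl and at 2.54, 2.02 and 2.22 CPM in shArl4c (limma log2 fold change 0.78, SE 0.18, adjusted p = 0.00202). Dlx4 stood at 3.92 ± 0.632 and 4.58 ± 0.924 CPM and did not pass (limma adjusted p = 0.406).

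Msx1 and Msx2, mediators of BMP signalling in tooth and skull mesenchyme, and Barx1, a marker of the mesenchyme that forms molars, were lower as well. Barx1 stood at 20.2, 19.9 and 24.9 CPM in shControl and at 13.1, 10.3 and 12.7 CPM in shArl4c. Its control libraries differed among themselves, with shControl 3 the highest, but all lay above all shArl4c libraries, and the fall was 1.80-fold (limma log2 fold change -0.80, SE 0.10, adjusted p = 6.24e-06). Msx1 stood at 14.1, 12.7 and 14.7 CPM in shControl and at 10.7, 10.5 and 10.9 CPM in shArl4c, 1.297-fold lower (limma log2 fold change -0.34, SE 0.09, adjusted p = 0.00624). Msx2 stood at 5.46, 4.44 and 4.30 CPM in shControl and at 3.12, 2.85 and 2.68 CPM in shArl4c, 1.64-fold lower (log2 fold change -0.56, limma adjusted p = 0.00429). In all, 7 of the 9 tested Dlx, Msx and Barx genes fell (77.8%, against 18.0% of all tested genes) and 1 rose.

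**Figure D2:**
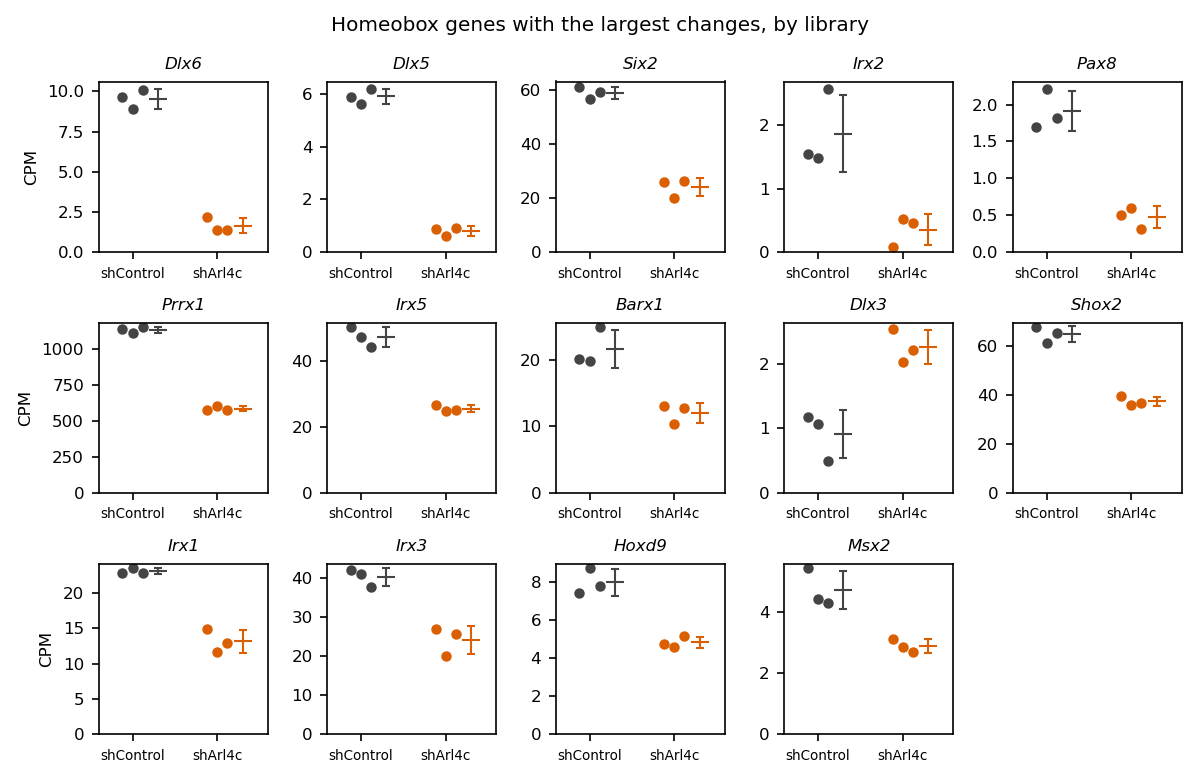
CPM (vertical axes, linear and starting at 0, with a scale of their own in each panel) of 14 homeobox genes among those with the largest absolute log2 fold change past the threshold, in order of that change. Points are single libraries, in table order from left to right, and bars are means ± SD of 3 libraries; the groups are apart in every panel, and Dlx3 is the only gene of the 14 with the shArl4c libraries on top.

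Prrx1, a homeobox gene of limb and head mesenchyme, was by far the most abundant member in CPM. Its control libraries were at 1134, 1111 and 1152 CPM and its shArl4c libraries at 576, 604 and 576 CPM, a narrow spread on either side of a 1.94-fold fall (limma log2 fold change -0.95, SE 0.04, adjusted p = 3.9e-13). Its paralogue Prrx2, which can stand in for it in the mouse jaw and limb, fell less, from 151 ± 9.30 to 130.0 ± 4.35 CPM (log2 fold change -0.21, limma adjusted p = 0.00192). The CPM ratio of Prrx1 to Prrx2 was 8.09, 7.21 and 7.29 in the shControl libraries and 4.44, 4.80 and 4.28 in the shArl4c libraries. These ratios did not overlap (two-sided exact permutation p = 0.1, the smallest that 3 against 3 allows, and 0.25 adjusted over 5 ratios of neighbours and paralogues). CPM was also taken per kilobase of the longest annotated protein-coding transcript, of 6527 bases for Prrx1 and 1441 for Prrx2. On that scale Prrx1 stood at 173 and Prrx2 at 105 in shControl. In shArl4c both stood at about the same level, 89.6 and 90.2. These levels depend on the transcript chosen.

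Shox2, a regulator of limb, palate and jaw joint mesenchyme, fell with Prrx1. Shox2 stood at 67.8, 61.5 and 65.2 CPM in shControl and at 39.6, 36.1 and 36.7 CPM in shArl4c, 1.73-fold lower (limma log2 fold change -0.78, SE 0.06, adjusted p = 2.58e-09). The protein-coding gene Rsrc1 overlaps Shox2 on the other strand and stood at 52.6 and 47.8 CPM, so reads of the pair could be shared if strand was not used in counting. Pitx1, which specifies the hind limb and marks the oral region, stood at 34.2, 33.8 and 35.7 CPM in shControl and at 40.7, 34.6 and 40.5 CPM in shArl4c. The groups overlapped in shArl4c 3, and Pitx1 did not pass (log2 fold change 0.15, limma adjusted p = 0.0951). Without shArl4c 3 it passed as higher.

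All 4 tested Irx genes, which lie in clusters of neighbours and pattern limb, heart and nervous tissue, fell. Over all tested genes, lower calls were 18.0%. Irx5 stood at 50.3, 47.2 and 44.3 CPM in shControl and at 26.6, 24.9 and 25.1 CPM in shArl4c, 1.85-fold lower (limma log2 fold change -0.86, SE 0.06, adjusted p = 2.57e-09). Irx3, in the same cluster, stood at 41.9, 41.0 and 37.6 CPM in shControl and at 26.7, 19.9 and 25.6 CPM in shArl4c, 1.67-fold lower (limma log2 fold change -0.72, SE 0.09, adjusted p = 3.84e-05). The CPM ratio of Irx5 to Irx3 was 1.15 to 1.20 in shControl and 0.997, 1.248 and 0.982 in shArl4c (two-sided exact permutation p = 0.4). The groups overlapped through shArl4c 3 alone, as the ratios of shArl4c 2 and 4 lay below every control. Whether both genes of this cluster lost a like share is thus not settled. In the other cluster Irx1, too, stood at 22.9, 23.6 and 22.8 CPM in shControl and at 14.96, 11.7 and 12.9 CPM in shArl4c (limma log2 fold change -0.77, SE 0.09, adjusted p = 8.7e-07). Irx2 was near the test's lower limit, at 1.55, 1.48 and 2.56 CPM in shControl and at 0.0726, 0.525 and 0.459 CPM in shArl4c. Its lowest library, shArl4c 2, held 1 read, and the log2 fold change was -1.08 (SE 0.20, limma adjusted p = 0.000282).

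Genes of the Six2 family, whose products act with EYA proteins in head mesenchyme, sensory organs and muscle, changed in both directions. Of the 4 tested, 3 were lower and 1 higher, where 18.0% of all tested genes were lower and 18.9% higher. Six2, which keeps progenitor cells of head and kidney mesenchyme, stood at 61.1, 56.8 and 59.3 CPM in shControl and at 26.0, 20.2 and 26.2 CPM in shArl4c. The fall was 2.45-fold (limma log2 fold change -1.27, SE 0.09, adjusted p = 3.33e-08), and shArl4c 3 was the lowest library. Six4 rose, and went from 38.5 ± 1.13 to 44.2 ± 2.23 CPM (log2 fold change 0.20, limma adjusted p = 0.0138). Six5 stood at 20.2, 20.2 and 21.4 CPM in shControl and at 15.7, 17.8 and 16.5 CPM in shArl4c (log2 fold change -0.29, limma adjusted p = 0.00572).

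**Figure D3:**
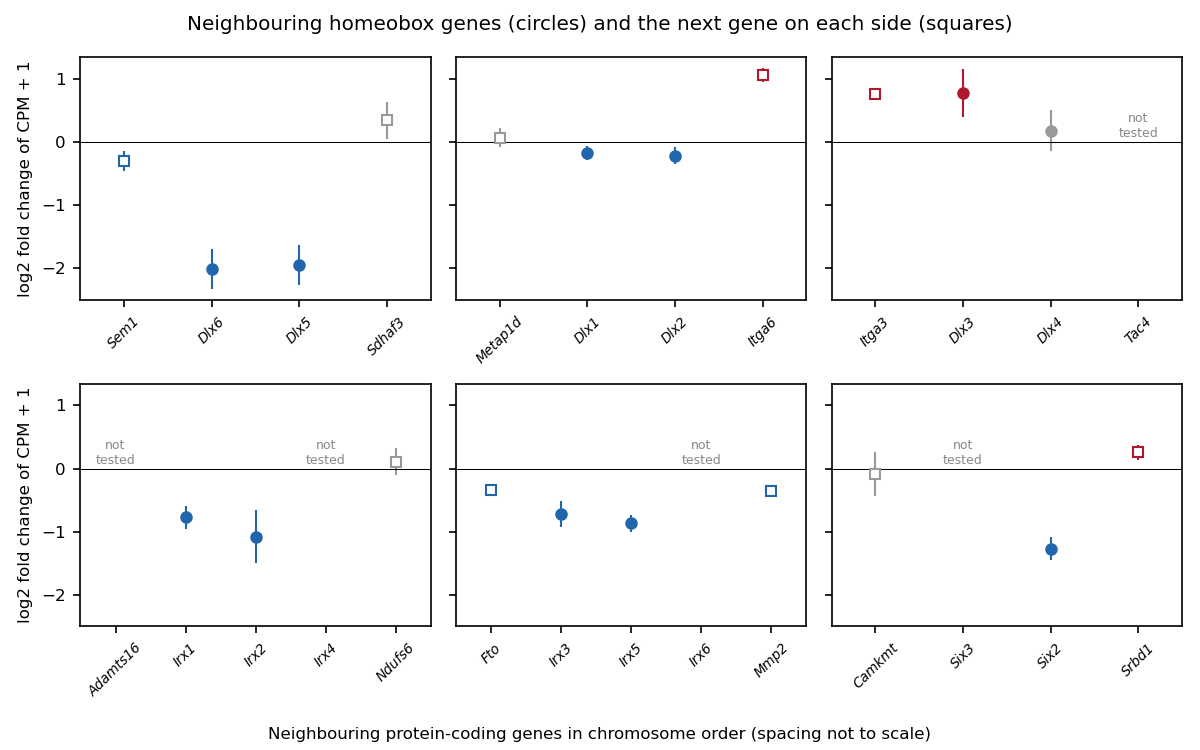
Log2 fold change of CPM + 1 (vertical axis, limma estimate with 95% confidence interval) of neighbouring homeobox genes (filled circles) and of the next protein-coding gene on each side (open squares) in 6 clusters, in chromosome order and not to scale. Colours give lower (blue), higher (red) and not passed (grey); Dlx6 and Dlx5 lie near -2 between Sem1 at -0.30 and Sdhaf3 at 0.34, and Irx3 and Irx5 lie below both of their flanks.

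Members that lie side by side on a chromosome could be set against the genes next to them. Runs of neighbouring members numbered 12 in the annotation, with 24 flanking protein-coding genes, of which 16 were tested. Of these flanks 4 were higher, 3 lower and 9 did not pass, a called share of 43.8% that is near the 36.9% of all tested genes. Beside Dlx6 and Dlx5, the proteasome component gene Sem1 had a log2 fold change of -0.30 (limma adjusted p = 0.00483) and Sdhaf3 one of 0.34 (limma adjusted p = 0.0669), both far from the values near -2 of the pair. Beside Irx3 and Irx5, Fto (log2 fold change -0.34) and the protease gene Mmp2 (-0.36) passed as lower. Next to the pair Dlx1 and Dlx2, the integrin gene Itga6 rose (log2 fold change 1.06), and next to Dlx3 the integrin gene Itga3 rose (0.76).

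Genes that overlap a member on the other strand, or are named for it as antisense RNA, gave 24 rows, 6 of them protein-coding. Of the 24, 13 were tested, 5 fell and 8 did not pass, where 18.0% of all tested genes fell. Among the 5 was the protein-coding gene Ext2, which overlaps Alx4, a member with no row, and went from 124 to 109 CPM. Dlx6os1, the antisense RNA across Dlx6, went from 6.70 to 2.91 CPM (log2 fold change -0.98, limma adjusted p = 8.96e-06). Gm20471 across Prrx1 went from 4.13 to 1.99 CPM and Irx3os across Irx3 from 2.33 to 1.40 CPM. The call of Irx3os was marginal, as its groups overlapped, its limma adjusted p was 0.044 and edgeR's was 0.0577. Gm13415, which overlaps Pax8, went from 5.49 to 1.47 CPM, a higher level than that of Pax8 itself. The sources used here do not state whether counting used strand, so the shares of the 2 strands are uncertain for Dlx6, Irx3 and above all Pax8. Prrx1 stood far above Gm20471.

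LIM homeobox genes Lhx6 and Lhx8, markers of oral mesenchyme of the first arch, and Lhx1 and Lhx2, regulators of kidney, nervous tissue and limb, were moderately expressed. Lhx8 stood at 34.0, 29.6 and 34.7 CPM in shControl and at 27.2, 25.9 and 29.5 CPM in shArl4c. The lowest control and the highest shArl4c library lay close together, and the log2 fold change was -0.24 (SE 0.07, limma adjusted p = 0.0143). Lhx1 stood at 12.3, 12.6 and 11.997 CPM in shControl and at 9.002, 8.54 and 7.88 CPM in shArl4c, 1.45-fold lower (log2 fold change -0.49, limma adjusted p = 0.000566). Lhx6 (log2 fold change 0.11), Lhx2 (0.28) and Isl2 (0.12), a motor neuron gene, did not pass, with 95% confidence intervals of -0.10 to 0.32, -0.02 to 0.57 and -0.23 to 0.48. Isl2 stood at 1.11, 1.68 and 1.24 CPM in shControl and at 1.38, 1.499 and 1.76 CPM in shArl4c.

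Of the Pax genes, Pax9, needed for teeth to pass the bud stage, did not pass. Pax9 stood at 21.9, 22.1 and 22.7 CPM in shControl and at 20.8, 23.2 and 21.0 CPM in shArl4c, with overlap (limma log2 fold change -0.04, 95% confidence interval -0.19 to 0.12, adjusted p = 0.744). Pax3, a neural crest and muscle progenitor gene, had means of 17.1 ± 1.305 and 20.02 ± 2.45 CPM and did not pass (limma adjusted p = 0.0754). Pax8, a thyroid and kidney gene, fell at a low level, from 1.70, 2.22 and 1.82 CPM in shControl to 0.508, 0.5996 and 0.306 CPM in shArl4c (limma log2 fold change -0.99, SE 0.18, adjusted p = 0.000176).

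Hox genes were detected mainly in the Hoxa and Hoxd clusters. Of 39 Hox genes, 16 had a row and 9 were tested, namely 6 Hoxa and 3 Hoxd genes; 1 of 10 Hoxb and 2 of 9 Hoxc genes had a row, all below 1 CPM. Hoxd8 was the most abundant, at 18.3, 19.3 and 22.8 CPM in shControl and at 18.3, 15.9 and 16.7 CPM in shArl4c. The highest shArl4c library all but touched the lowest control, and the call was marginal (limma log2 fold change -0.23, SE 0.09, adjusted p = 0.0493). It was lost in 9 of 17 alternatives. The neighbour Hoxd9 fell more clearly, from 7.38, 8.74 and 7.78 CPM in shControl to 4.72, 4.57 and 5.13 CPM in shArl4c (limma log2 fold change -0.63, SE 0.12, adjusted p = 0.000384). None of the 6 tested Hoxa genes passed limma's test, and none passed edgeR's quasi-likelihood test or DESeq2, but Hoxa3 passed limma without trend and robust moderation (adjusted p = 0.0098). Hoxa7, the most abundant of them, stood at 10.04, 9.88 and 10.5 CPM in shControl and at 11.5, 10.4 and 11.2 CPM in shArl4c (log2 fold change 0.11, 95% confidence interval -0.09 to 0.31). Hoxa3 was lower in every shArl4c library than in any control, with a log2 fold change of -0.27 and a limma adjusted p of 0.0992 (0.0098 to 0.307 over the alternatives). In all, 2 of 9 tested Hox genes were called, both lower, or 22.2%. Of the 36 other tested members 24 were called, or 66.7%. Over all tested genes 36.9% were called, and lower calls were 18.0%. Differences between these shares were not tested.

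**Figure D4:**
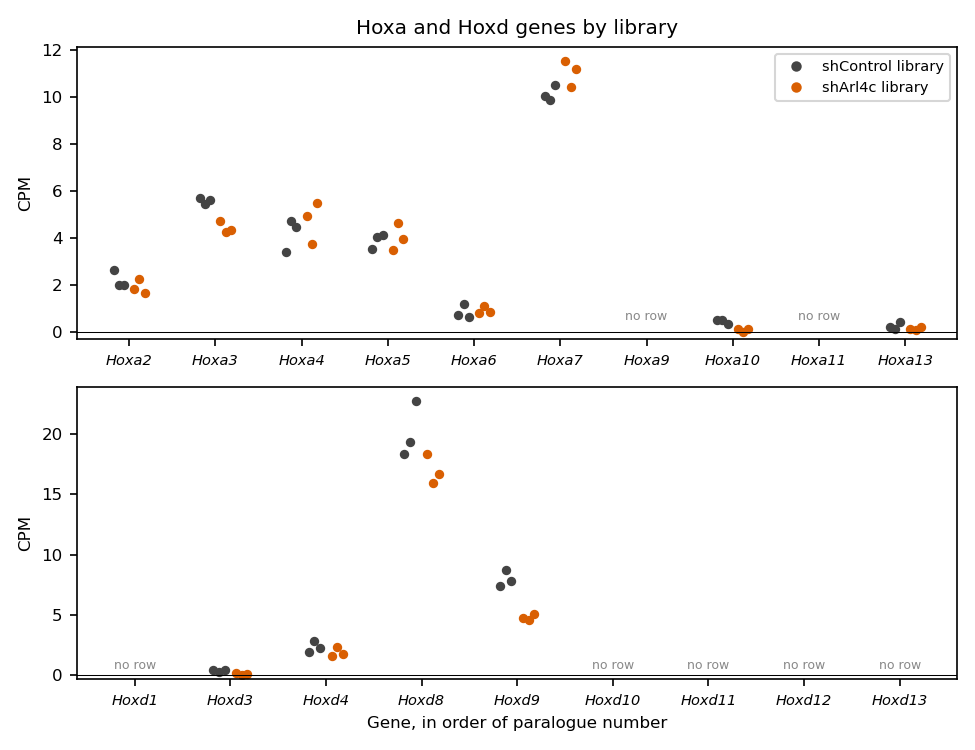
CPM (vertical axis, linear) of each library for Hoxa genes (top) and Hoxd genes (bottom) in order of paralogue number from Hoxa2 and Hoxd1 on, with shControl in grey and shArl4c in orange. Genes marked "no row" are not analysed here; Hoxa10 and Hoxa13 lie below 1 CPM, and the 2 groups are apart at Hoxd9 but mixed at Hoxa4, Hoxa5 and Hoxa6.

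Of the 6 tested genes for partners of Hox proteins, 1 rose and 5 did not pass. That is a called share of 16.7%, against 36.9% of all tested genes. Meis2, a partner that marks proximal limb and head mesenchyme, rose, at 40.7, 36.0 and 39.6 CPM in shControl and at 41.9, 48.8 and 47.98 CPM in shArl4c (limma log2 fold change 0.25, SE 0.07, adjusted p = 0.0075). Meis1, Meis3, Pbx2 and Pbx3 did not pass, with log2 fold changes of 0.06, -0.17, 0.11 and 0.06.

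Below the test's level, 16 members had means of 0.0730 to 0.896 CPM. These include Alx1, a head mesenchyme gene, at 1.48, 1.21 and 0.248 CPM in shControl and at 0.218, 0 and 0.0765 CPM in shArl4c. With 3 reads as the limit that a count of 0 allows (0.202 to 0.248 CPM in a library), many of these values lie at or under what counting can resolve. With no filter on low values limma called 5 of the 16: Alx1, Lhx9, Hoxa10 and Hoxb9 lower and Isl1 higher, with adjusted p of 0.0265, 0.00232, 0.0137, 0.0479 and 0.0398. A share of 25.2% of all 22032 genes was called in that fit. It includes the genes above the filter, so it is not a like background for these 16. Isl1 stood at 0.0672 to 0.295 CPM in shControl and at 0.306 to 0.824 CPM in shArl4c.

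Compared per kilobase of transcript, the order of the members shifted with these changes. In shControl Prrx1, Prrx2 and Six2 were the highest, at 173, 105 and 27.9 CPM per kilobase, and Shox2, at 21.1, was in place 5. In shArl4c, Prrx2 and Prrx1 stood level at the top and Pitx1, at 15.7, was in place 5, while Six2, at 11.4, was in place 11. Dlx6 went from place 26 to 41 and Dlx5 from 27 to 42 of the 45 tested members. Prrx1 and Prrx2 in shArl4c differ by less than the spread between libraries, so no order between them is read.

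Cofactors of homeodomain proteins changed in both directions. Of 25 listed genes, 16 were tested, of which 5 fell, 4 rose and 7 missed the threshold; their median log2 fold change was -0.01. The called share was 56.2%, against 36.9% of all tested genes. It was not above the background in every alternative. Without trend and robust moderation 4 of the 16 were called, where 30.5% of all tested genes were. The 3 called with the smallest p were Eya4 and Eya1, coactivators that bind Six2 and its relatives, and the Groucho corepressor Tle3. Eya4 went from 116 ± 2.96 to 82.9 ± 3.18 CPM (log2 fold change -0.48, limma adjusted p = 9.27e-08), Eya1 from 53.7 ± 2.06 to 39.3 ± 1.10 CPM and Tle3 from 106 ± 3.17 to 83.6 ± 0.690 CPM. The 4 that rose were Tle1, a relative of Tle3 (log2 fold change 0.37, limma adjusted p = 0.00054), Tgif2 (0.28), Ssbp4 (0.23) and Ssbp2 (0.21). Eya3 did not pass (log2 fold change 0.01). Below the test's level, Eya2 went from 1.67 to 0.0760 CPM and Dach2 from 1.69 to 0.273 CPM (limma adjusted p of 7.4e-07 and 2.54e-05 with no filter). Of 31 Polycomb and trithorax genes, which keep homeobox loci repressed or active, all were tested, 7 rose, 3 fell and 21 missed the threshold. Their median was 0.02 and their called share of 32.3% was not above the 36.9% of all tested genes. It was above the background with array weights (16 called, against 46.7% of all tested genes) and without shArl4c 3 (17 called, against 45.1%). Kdm6b, which removes the Polycomb mark H3K27me3, fell from 91.4 ± 2.36 to 61.97 ± 1.77 CPM (log2 fold change -0.55, limma adjusted p = 1.9e-08). The Polycomb genes Cbx7 (log2 fold change 0.57) and Mtf2 (0.39) rose, whereas Ezh2 (0.12), the enzyme that writes the mark, did not pass.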

How the data were processed

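RNA sequencing covered 3 shControl and 3 shArl4c samples of mDE6. The authors deposited normalised values in CPM, and Trimmomatic 0.38, RSEM 1.3.0, Bowtie2, edgeR and the build GRCm39 are named per the submitters' processing notes, without order or settings. All values (100%, within 0.001 of a read) were whole multiples of the smallest of their column, so reads were recovered, and edgeR's quasi-likelihood test called 5376 genes on them. Columns named shluc were taken as shControl and those naming the hairpin, with the gene misspelt, as shArl4c; none was tied to a single sample. Since no label says that the samples of a group came from separate cultures, p-values reflect the spread among these libraries alone, and it may be technical. Floors cover counting error only.

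Symbols matched 21880 of 22032 identifiers. GENCODE M21 (GRCm38) gave gene types, transcript lengths and neighbours, with no coordinates printed. The 14740 genes whose mean reached 1 CPM were fitted as log2(CPM + 1) with limma 3.58.1 (R 4.3.3; trend and robust moderation, no covariate), with p-values adjusted over all by Benjamini and Hochberg. Members and lists were chosen with earlier results of these data known. Given in full were the 20 called members of largest absolute change and the most abundant tested member of each family; of each context list, the 3 called genes of smallest p. Results on some genes these rules name are not reported here, in text or figures. Other genes were chosen after their values were seen. Steps were tested on simulated counts. Alternatives were other pseudocounts (0.5, 5), filters (none, 5 CPM), scalings and moderation, array weights, edgeR 4.0.16, DESeq2 1.42.0 and each library left out.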

Additional observations from a re-analysis of the deposited data

How the results depend on the processing

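All 26 called members kept their direction in the 17 alternatives wherever they were tested, and 20 stayed past the threshold; the others, Hoxd8, Meis2, Dlx1, Dlx2, Lhx8 and Six4, lost the call in at least 1. Between 20 (filter at 5 CPM, 33 members tested) and 30 (no filter, 61 tested) members were called. The number was 21 with DESeq2, 26 with edgeR and 21 to 27 with a library left out. Over all genes, those fits called 42.9% at 5 CPM, 25.2% with no filter, 27.9% with DESeq2 and 36.5% with edgeR. The share of all genes was 46.7% with array weights and 29.5% to 45.1% with a library left out. Members called higher numbered 5 with array weights and 2 to 5 with a library left out, 5 without shArl4c 3. The members' median log2 fold change was -0.24 with a pseudocount of 0.5, -0.19 with 5, -0.20 with array weights, -0.25 with edgeR, -0.24 with DESeq2 and -0.24 to -0.20 with a library left out. Cofactor calls (9) were 4 without trend and robust moderation and 5 to 11 with a library left out, 5 without shControl 2. The fit without trend and robust moderation called 30.5% of all tested genes, and that without shControl 2 called 29.5%. Calls of chromatin regulators (10) were 16 with array weights and 7 to 17 with a library left out, 17 without shArl4c 3. Of all tested genes, 46.7% were called with array weights and 45.1% without shArl4c 3. Hoxa5, which did not pass, ranged from -0.05 to 0.11 with a library left out, below 0 without shControl 1 (-0.02) and without shArl4c 3 (-0.05). Causes were not tested. No paired analysis was possible because the columns are numbered 1 to 3 and 2 to 4 and are tied to no single sample. Depth limits genes below 1 CPM, and 3 libraries per group limit all.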

Other observations

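Homeobox genes outside the families above were listed as well. Of 67 such genes, 41 had a row and 26 were tested, of which 10 fell, 1 rose and 15 missed the threshold. Called genes were 42.3% of those tested, against 36.9% of all tested genes, and lower calls 38.5%, against 18.0%. Their median log2 fold change was -0.11. Zfhx4, a large zinc finger and homeobox factor, fell 10.7-fold, from 49.1 ± 0.713 to 4.61 ± 1.16 CPM (SD, n = 3; limma log2 fold change -3.18, SE 0.12, adjusted p = 1.78e-11). The only rise was that of Lmx1a, a LIM homeobox gene of the developing brain, from 0.424 ± 0.161 to 3.73 ± 0.829 CPM (log2 fold change 1.72, limma adjusted p = 2.69e-07). With a control mean under 1 CPM, Lmx1a was tested through its shArl4c level. Chosen after their values were seen, Emx2 (log2 fold change -0.96), Zhx2 (-0.88), Hlx (-0.77), Tshz3 (-0.53) and En1 (-0.49) also fell, while the related Zhx1 (0.04), Zhx3 (-0.05) and Tshz1 (0.21) did not pass.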
